A study of Mus musculus with 3 samples.

Results

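Small nucleolar RNAs and their relatives of the Cajal body were examined in the popliteal lymphnodes of mice. They were the genes whose symbol begins with Snord, Snora or Scarna followed by a number. They came to 147 symbols of 48568 in the tables, namely 98 Snord symbols of the box C/D class, 40 Snora symbols of the H/ACA class and 9 Scarna symbols. Whole lymphnodes of C57Bl/6 mice at 5 months of age were used. The 3 groups were wildtype females, pooled from 6 mice, SryHi males, pooled from 3 mice, and wildtype males, pooled from 6 mice. SryHi males are the FCG XY males, from a model that separates gonadal sex from the sex chromosomes, in which Sry is deleted from the Y chromosome and an Sry transgene sits on an autosome, so that Sry is carried in many copies. Each pool gave 1 library of total RNA depleted of ribosomal RNA, read as 2 mates of 50 bases. There was therefore 1 value per group and no replicate check of any difference, and no test between groups was made. In whole tissue, fewer cells of a type and less RNA per cell cannot be told apart.

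Small nucleolar RNAs guide chemical changes of other RNAs. Box C/D RNAs carry a C box near the start and a D box near the end, bind fibrillarin and place methyl groups on the ribose of ribosomal and spliceosomal RNA, whereas H/ACA RNAs end in an ACA box, bind dyskerin and direct the conversion of uridine to pseudouridine. Scarna RNAs do the same work on spliceosomal RNA in the Cajal body and can carry boxes of both kinds. Most of these RNAs in mammals are cut from the introns of host genes, often genes of ribosomal proteins or of long non-coding RNAs named Snhg, and a few act in the cleavage of the ribosomal RNA precursor and not in its modification.

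The sequences below belong to the most abundant members of each class and to the members with the largest differences between libraries, and they show the boxes by which the classes are defined. They are the GENCODE M21 transcripts, 5′ to 3′, on GRCm38, the assembly of mm10. Capitals mark the D box CTGA in the last 15 bases of box C/D and Scarna RNAs, together with the C box ATGATGA or GTGATGA where it lay in the first 20 bases, and the ACA box in the last 8 bases of H/ACA RNAs. Only the strand of the RNA was searched.
Snord104: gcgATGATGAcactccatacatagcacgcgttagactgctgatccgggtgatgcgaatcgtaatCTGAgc
Snord32a: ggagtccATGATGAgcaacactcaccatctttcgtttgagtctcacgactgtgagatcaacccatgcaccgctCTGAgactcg
Snord22: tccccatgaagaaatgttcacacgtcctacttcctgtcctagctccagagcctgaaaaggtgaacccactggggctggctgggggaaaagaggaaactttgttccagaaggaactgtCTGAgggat
Snord118: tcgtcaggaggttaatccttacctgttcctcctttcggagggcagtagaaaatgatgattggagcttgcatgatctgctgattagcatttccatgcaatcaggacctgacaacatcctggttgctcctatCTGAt
Snord21: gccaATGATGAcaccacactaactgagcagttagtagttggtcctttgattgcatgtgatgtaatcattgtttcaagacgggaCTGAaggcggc
The box C/D RNAs shown lie on GRCm38 with Snord104 at chr11:106500993-106501062 (plus strand), Snord32a at chr7:45127382-45127464 (minus strand), Snord22 at chr19:8725866-8725991 (plus strand), Snord118 at chr11:69073427-69073561 (plus strand) and Snord21 at chr5:107904555-107904648 (plus strand). Snord104 and Snord21 hold both boxes within those windows, as does Snord32a, whereas Snord22 and Snord118 hold the D box only. Among the box C/D entries of the tables, 66 of 99 (66.7%) held both boxes, against 3 of 5192 other genes of 60 to 240 nt (0.0578%). Both boxes were found in 17 of the 21 box C/D entries with a value above 0 and in 49 of the 78 that were listed at 0 in every library.

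The H/ACA RNAs shown include the near-identical pair Snora73a and Snora73b, the members with the highest and the lowest ratio of the class between females and males, and the member with its highest ratio between the male libraries.
Snora73b: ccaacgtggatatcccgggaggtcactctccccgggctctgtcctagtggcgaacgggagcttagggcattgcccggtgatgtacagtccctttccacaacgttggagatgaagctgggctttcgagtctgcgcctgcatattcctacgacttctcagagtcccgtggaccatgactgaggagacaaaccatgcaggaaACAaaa
Snora73a: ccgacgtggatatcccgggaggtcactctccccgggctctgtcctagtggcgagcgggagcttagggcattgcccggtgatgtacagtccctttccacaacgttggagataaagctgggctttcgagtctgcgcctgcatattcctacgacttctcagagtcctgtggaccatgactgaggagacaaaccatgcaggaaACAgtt
Snora17: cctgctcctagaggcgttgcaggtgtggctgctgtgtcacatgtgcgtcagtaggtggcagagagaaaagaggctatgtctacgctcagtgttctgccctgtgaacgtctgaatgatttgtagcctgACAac
Snora26: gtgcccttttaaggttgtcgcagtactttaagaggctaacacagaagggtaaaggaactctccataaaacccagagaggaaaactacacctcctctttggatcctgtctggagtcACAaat
Snora5c: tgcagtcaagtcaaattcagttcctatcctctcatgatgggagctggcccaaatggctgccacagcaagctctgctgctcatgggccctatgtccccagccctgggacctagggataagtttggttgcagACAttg
Snora44: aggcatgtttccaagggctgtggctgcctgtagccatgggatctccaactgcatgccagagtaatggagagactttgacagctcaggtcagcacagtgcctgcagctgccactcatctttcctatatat
They lie on GRCm38 with Snora73b at chr4:132352322-132352526 (minus strand), Snora73a at chr4:132352775-132352979 (minus strand), Snora17 at chr2:26639190-26639321 (minus strand), Snora26 at chr5:74093530-74093650 (plus strand), Snora5c at chr11:6620319-6620454 (minus strand) and Snora44 at chr4:132309941-132310069 (plus strand). Snora73a and Snora73b have 198 of 205 bases in common (96.6%), so reads could be divided between them, and the division of their level is uncertain. The ACA box was found in 39 of 41 H/ACA entries (95.1%), against 11.4% of other genes of the same lengths. Snora44 was 1 of the 2 entries in which it was not within the last 8 bases.

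Of the longest members the last 150 bases are given, namely bases 176 to 325 of Scarna10 and bases 265 to 414 of Scarna2.
Scarna10: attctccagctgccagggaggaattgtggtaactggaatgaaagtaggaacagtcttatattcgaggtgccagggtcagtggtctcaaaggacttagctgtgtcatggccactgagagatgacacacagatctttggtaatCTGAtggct
Scarna2: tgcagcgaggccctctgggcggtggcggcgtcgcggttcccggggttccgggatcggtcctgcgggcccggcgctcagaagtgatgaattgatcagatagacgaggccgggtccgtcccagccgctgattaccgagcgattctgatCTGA
They lie on GRCm38 with Scarna10 at chr6:125186359-125186683 (minus strand) and Scarna2 at chr3:108554338-108554751 (minus strand).

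Most members were listed at 0, and members under 100 nt had a value less often than longer ones, though detection did not rise steadily with length. A value above 0 in at least 1 library was given for 50 of the 147 members (34.0%), and 27 members had one in all 3 libraries. Over all 48568 symbols the share was 48.0%, and 18512 had a value in all 3. Of 1384 other gene models annotated as small nucleolar or Cajal body RNAs, 6.79% had a value in at least 1 library. By library, 40 members were above 0 in wildtype females, 31 in SryHi males and 41 in wildtype males. Over all symbols these counts were 20827, 20852 and 20643. None of the 43 members of 60 to 79 nt had a value in all 3 libraries, and 7 had one in any. Of 45 members of 80 to 99 nt, 4 had a value in any library and 1 in all 3. The counts were 5 of 7 at 100 to 119 nt, 24 of 42 at 120 to 149 nt and 10 of 10 at 150 to 450 nt. By class, 21 of 98 box C/D members, 23 of 40 H/ACA members and 6 of 9 Scarna members were above 0 in any library. Box C/D members were the shortest class, with a median annotated length of 84.5 nt, against 132 nt for H/ACA members and 140 nt for Scarna members. At equal length the 2 classes lay the other way round, since 4 of 4 box C/D members of 120 to 149 nt had a value and 18 of 35 H/ACA members of that length did.

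**Figure D1:**
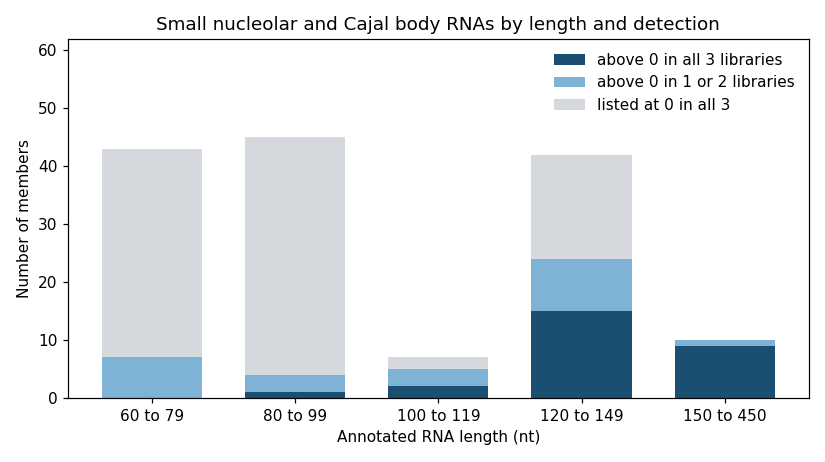
Number of members (vertical axis) in each class of annotated RNA length in nt (horizontal axis), with each bar split by whether a value above 0 was given in all 3 libraries, in 1 or 2, or in none. Values above 0 in all 3 libraries are found for 0 of 43 members of 60 to 79 nt and for 9 of 10 members of 150 nt or more.

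The lowest value above 0 was also high where members were short. Among members of 60 to 79 nt the lowest values above 0 were 4282 FPKM in wildtype females, 4043 FPKM in SryHi males and 701 FPKM in wildtype males. FPKM is a fragment number that has been corrected for how long the transcript is and how many fragments were mapped. Among members of 150 nt or more the lowest were 8.80, 45.5 and 64.0 FPKM in the same libraries. A member listed at 0 was thus not shown to be absent, and the part of length in the listed zeros was not tested. Of the 97 members at 0 in every library, 36 were of 60 to 79 nt and 41 of 80 to 99 nt, below the length of both mates laid end to end, and 2 were of 100 to 119 nt and 18 of 120 to 149 nt. The files hold no counts, so the depth behind a value is unknown.

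The members listed at 0 included RNAs of known importance. All 17 Snord116l copies, which are 94 nt long and lie in the imprinted Snhg14 gene, were listed at 0, as was Snhg14 itself. Over all members, 17 entries, Snord116l copies among them, share their whole sequence with another gene, and 0 of these had a value. Snord14a, Snord14c, Snord14d and Snord14e, the U14 RNAs that act in processing of small-subunit ribosomal RNA, were listed at 0 in every library. Their common host Hspa8, which holds all but Snord14a, had 296 FPKM in wildtype females, 332 FPKM in SryHi males and 413 FPKM in wildtype males. Many members without a value lay in hosts that had one. The median host level, averaged over the 3 libraries, was 40.8 FPKM for 96 hosted entries at 0 and 70.3 FPKM for 43 hosted entries above 0, and 32 of the 96 lay in hosts of at least 100 FPKM. The 96 include the 17 Snord116l copies, whose host was at 0. Rpl13a holds 4 members, of which Snord32a had a value and Snord33, Snord34 and Snord35a were listed at 0. In Snhg12, all 4 symbols within the gene, Snora16a, Snora44, Snora61 and Snord99, had a value in at least 1 library. Hosts were sought only among genes with a position in GENCODE M21 and a listed value. A host without a position, such as the entry of Snhg4, would be missed. Of the 10 entries for which no host was found on their strand, 8 were above 0, against 19 of 75 inside introns and 24 of 64 that overlap an annotated exon.

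Box C/D members gave both the highest level and the widest gaps between libraries. Snord104, which guides methylation of large-subunit ribosomal RNA, had 57887 FPKM in wildtype females, was listed at 0 in SryHi males and had 12304 FPKM in wildtype males. It alone made up more than the other members of its class together in wildtype females. Snord32a, from the Rpl13a locus, had 9322 FPKM in wildtype females, 544 FPKM in SryHi males and 5989 FPKM in wildtype males. Snord22 (U22), which acts in processing of small-subunit ribosomal RNA in the frog, had 5548 FPKM in wildtype females, 0.241 FPKM in SryHi males and 2050 FPKM in wildtype males. The SryHi value of Snord22 was the lowest value above 0 of any member. It overlaps an exon of its host Snhg1, which had 61.5, 47.1 and 49.9 FPKM in the same order of libraries, so reads could be divided between the RNA and its host. Snord15b, an RNA of the Rps3 gene, had 3255 FPKM in wildtype females, 806 FPKM in SryHi males and 1641 FPKM in wildtype males. Its relative Snord15a had 696, 213 and 308 FPKM in that order. Snord17, the longest box C/D member at 238 nt, had 1846 FPKM in wildtype females, 446 FPKM in SryHi males and 897 FPKM in wildtype males. In each of these 6 the female library was the highest and the SryHi library the lowest.

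Snord13 and Snord118 are further RNAs of ribosomal RNA processing. Snord13 (U13), needed for acetylation of small-subunit ribosomal RNA, was nearly level, with 558 FPKM in wildtype females, 519 FPKM in SryHi males and 526 FPKM in wildtype males. Snord118 (U8), which acts in maturation of large-subunit ribosomal RNA, had 32.2 FPKM in wildtype females, was listed at 0 in SryHi males and had 45.2 FPKM in wildtype males. Both are transcribed outside host genes.

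H/ACA members were led by 3 long RNAs. Snora73b (U17), which acts in cleavage of the precursor of small-subunit ribosomal RNA, had 5203 FPKM in wildtype females, 729 FPKM in SryHi males and 2045 FPKM in wildtype males. Snora73a had 4654, 813 and 2409 FPKM in the same order, and both lie in Snhg3. Snora74a, for which no host was found on its strand, had 3547 FPKM in wildtype females, 773 FPKM in SryHi males and 1787 FPKM in wildtype males. Next came Snora68, with 1900 FPKM in wildtype females, 488 FPKM in SryHi males and 531 FPKM in wildtype males. In the U17 pair and Snora74a the 3 libraries lay well apart, whereas for Snora68 the male libraries were close to each other and the female library was above both. Snora7a, an RNA of the Rpl32 gene, had 661, 50.7 and 337 FPKM in wildtype females, SryHi males and wildtype males. Snora78, of Snhg9, had 396, 128 and 138 FPKM in that order.

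The Scarna members above 0 were 6 of 9. Scarna10 (U85), which guides both kinds of change on U5 spliceosomal RNA, had 3140 FPKM in wildtype females, 1081 FPKM in SryHi males and 1932 FPKM in wildtype males. Scarna2, a guide for methylation of U2 RNA, had 1253 FPKM in wildtype females, 376 FPKM in SryHi males and 939 FPKM in wildtype males. Scarna13 had 605, 291 and 352 FPKM in that order, and Scarna6 had 259, 45.5 and 135 FPKM. SryHi males were lowest for all 4. Scarna3a had 109 FPKM in wildtype females, 36.7 FPKM in SryHi males and 125 FPKM in wildtype males. Its copy Scarna3b, at 85.7% identity, had 17.9 FPKM in wildtype females and was listed at 0 in both male libraries. Scarna8, Scarna9 and Scarna17 were listed at 0 in all 3.

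**Figure D2:**
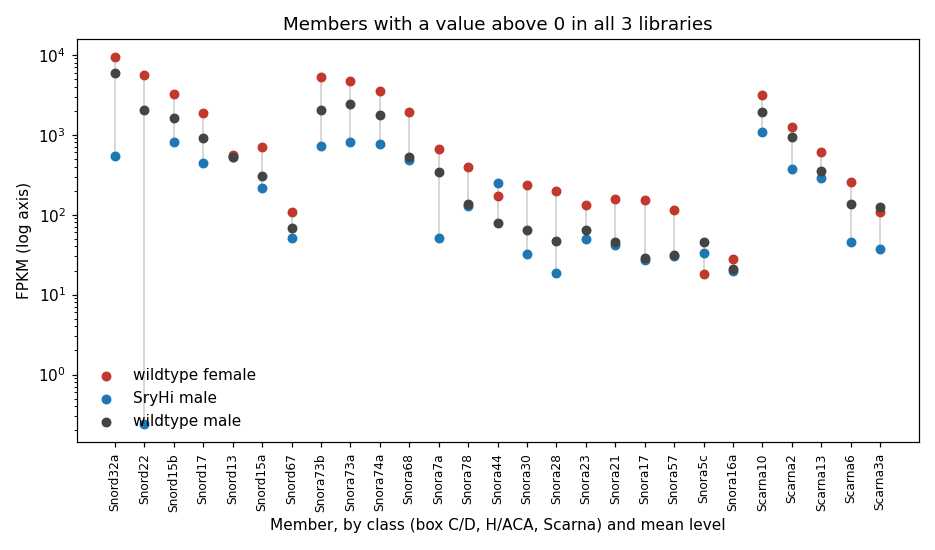
FPKM on a log axis (vertical) of the 27 members with a value above 0 in all 3 libraries (horizontal axis, by class and mean level). Points are single pooled libraries of wildtype females, SryHi males and wildtype males, joined by a grey line per member, with no error bars since each group has 1 library. The lowest point is Snord22 in SryHi males at 0.241 FPKM, and Snord13 has its 3 points closest together, between 519 and 558 FPKM.

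The comparison of females with males asked which members were higher or lower in wildtype females. Ratios were taken as log2 of FPKM + 1, which understates differences of low values, for members averaging 1 FPKM or more over the pair, and 2-fold, the threshold of the study, was used to count them. Of 48 members measured, 22 were at least 2-fold higher in wildtype females and 9 were lower. Over all 15523 symbols measured, 2.83% were higher and 2.77% were lower. Listed zeros set part of both counts, since 7 of the higher members were listed at 0 in wildtype males and 8 of the lower members were listed at 0 in wildtype females. Among the 33 members above 0 in both libraries, 15 were higher, 1 was lower and 17 lay within 2-fold, beside 2.04% higher and 1.98% lower of all 15268 such symbols. Their median was 0.99 on the log2 scale, with quartiles of 0.64 and 1.52, and 30 of the 33 lay above 0. The median over all symbols measured was 0.01.

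H/ACA members lay further above wildtype males than box C/D members did. Of the 17 H/ACA members above 0 in both libraries, 11 were higher, 1 was lower and the median log2 ratio was 1.35. Of the 11 box C/D members, 4 were higher, none was lower and the median was 0.67. Of the 5 Scarna members none reached 2-fold, with a median of 0.70. All H/ACA members were of 121 nt or more, whereas most box C/D members were shorter. Among measured members of at least 120 nt, including those listed at 0 in either library, the medians were 1.04 for box C/D and 1.43 for H/ACA members. The difference between the classes was not tested, since the members of a library share its depth and preparation.

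The largest ratio belonged to Snora26, at 402 FPKM in wildtype females against 48.5 FPKM in wildtype males, or 3.03 on the log2 scale. Snora17 had 154 FPKM in wildtype females against 28.6 FPKM in wildtype males (2.39). Snord104 followed at 2.23. These were followed by Snora28, at 198 FPKM in wildtype females against 47.4 FPKM in wildtype males (2.04), and by Snora57, with 116 and 31.2 FPKM (1.86). Snora30 had 235 FPKM in wildtype females, against 65.0 FPKM in wildtype males, and Snora68 lay at the same log2 ratio of 1.84. Only Snora5c was at least 2-fold lower among members with 2 values, at 18.1 FPKM in wildtype females against 45.0 FPKM in wildtype males (-1.26). The next lowest ratios were those of Snord118 at -0.48, Scarna3a at -0.20, Snord13 at 0.09, Snora16a at 0.41 and Scarna2 at 0.42. The U17 pair lay at 1.35 for Snora73b and 0.95 for Snora73a, and Snord22 lay at 1.44.

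The comparison of SryHi with wildtype males asked the same of the Sry transgene model, and it shares the wildtype male library with the comparison above. Of 44 members measured, 5 were at least 2-fold higher in SryHi males and 26 were lower, whereas after rescaling each library to a common sum (TPM) 17 were higher and 16 were lower. Over all 15566 symbols measured, 3.7% were higher and 4.14% were lower on the FPKM scale. Of the 26 lower members, 13 were listed at 0 in SryHi males, and 3 of the 5 higher members were listed at 0 in wildtype males. Among the 28 members above 0 in both libraries, 2 were higher, 13 were lower and 13 lay within 2-fold, beside 3.06% higher and 3.22% lower of all 15307 such symbols. Their median was -0.68, with quartiles of -1.36 and -0.12, and 26 of the 28 lay below 0, against a median of 0.04 over all symbols measured.

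Within the classes, the 8 box C/D members with 2 values held 4 lower and 1 higher, with a median log2 ratio of -0.77. Of 15 H/ACA members, 6 were lower and 1 was higher, with a median of -0.35. All 5 Scarna members lay below 0, of which 3 were at least 2-fold lower, and their median was -1.32. Over all H/ACA members measured the median was -0.41 in FPKM and 1.17 after rescaling to TPM, on which scale the median of all genes was 1.37. The H/ACA median was therefore below that of all genes on both scales, and its sign differed between them. Scaling the 2 libraries to an equal median gene level instead gave an H/ACA median of -0.47, with 5 members higher and 26 lower.

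The lowest ratio was that of Snord22 at -10.69. Snord32a lay at -3.46 and Snora7a at -2.71. Scarna3a at -1.74, Snora73a at -1.57 and Scarna6 at -1.55 came next. Snora44 was the highest, with 252 FPKM in SryHi males and 78.2 FPKM in wildtype males (1.68), and it had 170 FPKM in wildtype females. Snord21, an RNA of the Rpl5 gene, had 4314 FPKM in SryHi males and 1895 FPKM in wildtype males (1.19) and was listed at 0 in wildtype females. The ratios nearest to these were -0.02 for Snord13, -0.03 for Snora57, -0.04 for Snora16a and -0.07 for Snora17. Snora57 had 30.5 FPKM in SryHi males and 31.2 FPKM in wildtype males, and Snora17 had 27.2 and 28.6 FPKM in that order. The members highest in wildtype females over wildtype males thus included some that were nearly level between the male libraries.

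**Figure D3:**
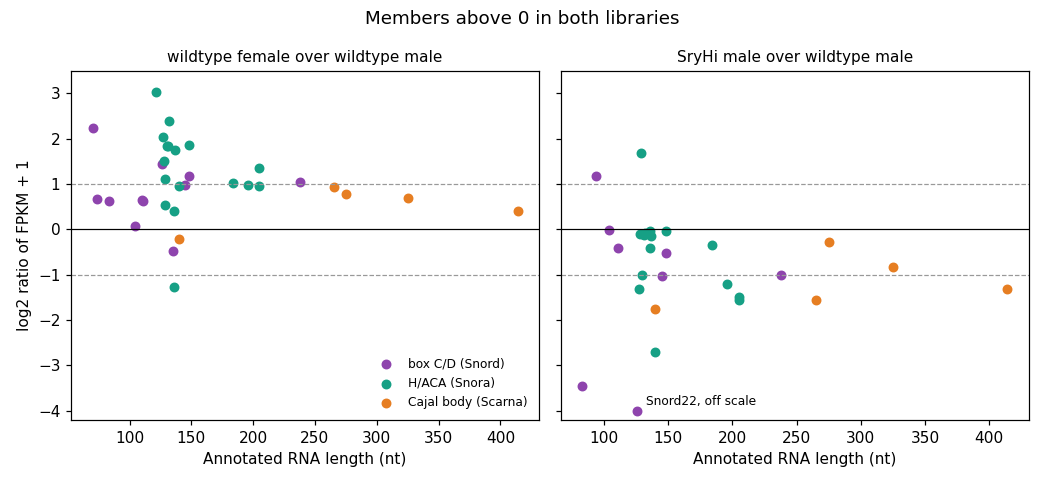
Log2 ratio of FPKM + 1 (vertical) against annotated RNA length in nt (horizontal) for members above 0 in both libraries, with wildtype female over wildtype male (33 members) on the left and SryHi male over wildtype male (28 members) on the right. Dashed lines mark 2-fold, colours mark the class and Snord22 is drawn at the edge of the right panel; on the left 30 members lie above 0 and on the right 26 lie below 0 on the FPKM scale, which rescaling to TPM would raise by more than 1 for the median gene.

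Members with a value in 1 or 2 libraries only were 23 in number. Besides Snord104, Snora26 and Snord21, the member of this kind with the highest mean was Snord65, with 7014 FPKM in wildtype females and listed at 0 in both male libraries. Its neighbour in the gene 2410006H16Rik, Snord49b, had 4043 FPKM in SryHi males and was listed at 0 in both wildtype libraries. Snord100, of the Rps12 gene, had 4282 FPKM in wildtype females, against 2682 FPKM in wildtype males, and was listed at 0 in SryHi males. Snord47 of Gas5 had a value in wildtype males only, at 1679 FPKM. By library, 6 members had a value in wildtype females only, 2 in SryHi males only and 7 in wildtype males only. Of all 23318 symbols above 0 in any library, 995, 1000 and 831 had a value in that library only. A value was missing from wildtype females only for 1 member, from SryHi males only for 6 and from wildtype males only for 1. Over all symbols these counts were 660, 640 and 680. All 7 members of 60 to 79 nt with a value were among the 23. So were members of 120 to 149 nt, 5 with a value in 1 library and 4 with a value in 2. The part of length and of the high lowest values given above in these gaps was not tested.

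The lowest values above 0 among genes of equal length also differed between libraries. Among 44 single-transcript genes of 164 nt, they were 7.13 FPKM in wildtype females, 4.82 FPKM in SryHi males and 5.73 FPKM in wildtype males, with 7, 7 and 6 genes above 0. Among 458 such genes of 107 nt they were 165, 90.3 and 121 FPKM in the same order, with only 1, 3 and 3 genes above 0. Smaller values occurred, since Snord22 of 126 nt had 0.241 FPKM in SryHi males. The order of the libraries, with wildtype females highest and SryHi males lowest, was that of 24 of the 27 members above 0 in all 3. How many of the 18512 symbols above 0 in all 3 had that order was not counted. The part of the lowest values in the members' differences was not tested.

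The shares past 2-fold among other short genes are given for comparison. Of other symbols of at most 300 nt above 0 in both libraries, 14.1% were at least 2-fold higher and 11.3% lower in wildtype females than in wildtype males, and 7.97% were higher and 19.6% lower in SryHi than in wildtype males. Other gene models annotated as small nucleolar or Cajal body RNAs, which carry no Snord, Snora or Scarna symbol, gave shares nearer to those of the members. Of 49 such models above 0 in both libraries, 42.9% were higher and 4.08% lower in wildtype females. Of 36 in the other comparison, 5.56% were higher and 38.9% lower in SryHi males. Among other short stable RNAs, Rnu3a (U3), a box C/D RNA of ribosomal RNA processing, had 496 FPKM in wildtype females, 94.5 FPKM in SryHi males and 286 FPKM in wildtype males. Terc, the telomerase RNA, which ends in an H/ACA domain, had 61.8, 8.32 and 33.6 FPKM in that order. Rn7sk, an RNA of transcription control, had 157651 FPKM in wildtype females, 132716 FPKM in SryHi males and 81695 FPKM in wildtype males, and Rnu12, of the minor spliceosome, had 4274, 4475 and 2177 FPKM. For these last 2 RNAs SryHi males were above wildtype males. Of 15 measured RNAs of that list, 3 were higher and 1 lower in wildtype females, with a median of 0.79, and 1 was higher and 5 lower in SryHi males, with a median of -0.46.

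The host genes did not show the differences of the RNAs they contain. Reads could be divided between host and RNA where the RNA overlaps an annotated exon, as 24 of the 43 hosted entries above 0 in any library did. For 24 entries in 20 hosts measured in females and males, the median log2 ratio was 0.98 for the member and 0.26 for the host, and the member was above its host in 21. None of these hosts reached 2-fold, beside 2.83% higher and 2.77% lower of all symbols measured. For 22 entries in 19 hosts in the male libraries, the medians were -0.92 and 0.02, and the member was below its host in 18. Hosts were kept at 1 FPKM or more in the first library of each ratio, wildtype females or SryHi males. Snhg9, the host of Snora78, was therefore kept only between the male libraries. There it lay at 2.61 over a listed 0, and it enters the count of 18 and the correlations. Across entries, the ratios of member and host had a Pearson r of 0.09 and a Spearman rho of 0.04 for females and males, and of 0.13 and 0.06 for SryHi and wildtype males. These correlations describe entries that share libraries and, in part, hosts. Rpl13a had 951 FPKM in wildtype females, 563 FPKM in SryHi males and 762 FPKM in wildtype males, and Rpl32 had 1028, 837 and 793 FPKM, although Snord32a and Snora7a inside them differed far more. Of 42 listed host genes in the tables, 38 were measured in females and males, and 0 reached 2-fold, beside the same shares of all symbols. With so few genes, a count of 0 does not set the hosts apart from all symbols. The median of the 38 was 0.23 in FPKM and turned to -0.03 in TPM. Snhg12 was the highest of them, at 49.0 FPKM in wildtype females against 27.97 FPKM in wildtype males (0.79), followed by Snhg20 at 0.77, and Hspa8 at -0.48 and Eef2 at -0.31 were the lowest. Between the male libraries 1 of 39 host genes reached 2-fold, beside 3.7% higher and 4.14% lower of all symbols measured. It was Snhg9, with 5.11 FPKM in SryHi males and a listed 0 in both wildtype libraries. Snhg20 at 0.74 was next, and Rack1 at -0.74 and Rpl7a at -0.68 were lowest. The median was -0.04 in FPKM, and in TPM it was 1.59, beside 1.37 for all genes.

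**Figure D4:**
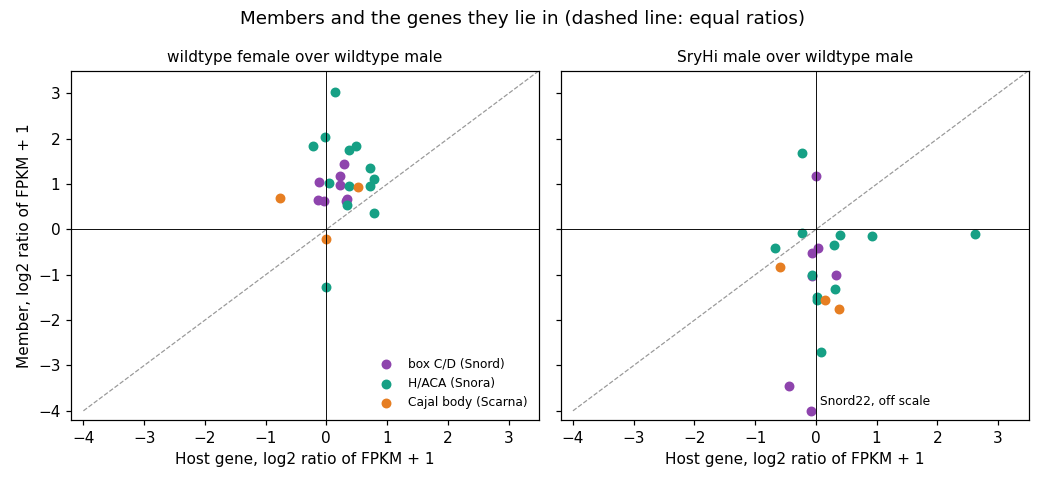
Log2 ratio of FPKM + 1 of each member entry (vertical) against that of the gene it lies in (horizontal), for wildtype female over wildtype male (left, 24 entries) and SryHi male over wildtype male (right, 22 entries), with a dashed line where the ratios are equal. Members lie above their host in 21 of 24 entries on the left and below it in 18 of 22 on the right, with Snord22 drawn at the edge; the host at 2.61 on the right is Snhg9.

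The core genes of the proteins that bind these RNAs lay within 2-fold between libraries. Fbl, which encodes the methyltransferase fibrillarin, had 35.6 FPKM in wildtype females, 31.9 FPKM in SryHi males and 30.2 FPKM in wildtype males. Nop56 and Nop58, its partners in the box C/D particle, had 61.9, 40.6 and 51.5 FPKM and 54.7, 65.3 and 53.0 FPKM in the same order. Nhp2l1, which binds the box C/D fold, had 44.0, 42.8 and 31.3 FPKM. Dkc1, which encodes the pseudouridine synthase dyskerin, had 28.8 FPKM in wildtype females, 40.3 FPKM in SryHi males and 28.3 FPKM in wildtype males. Its partners Nop10, Nhp2 and Gar1 had 27.2, 16.5 and 21.6 FPKM, 19.1, 15.2 and 20.9 FPKM, and 19.98, 19.7 and 18.4 FPKM. None of these 8 core genes reached 2-fold in either comparison. Of the 22 protein genes on the list, 0 reached 2-fold between wildtype females and wildtype males, beside 2.83% higher and 2.77% lower of all symbols, with a median of -0.11. In SryHi males 3 of them, the assembly factors Shq1 (-1.01), Znhit3 (-1.27) and Ruvbl2 (-1.18), were at least 2-fold lower than in wildtype males and none was higher, beside 4.14% lower and 3.7% higher of all symbols, and the median was -0.18 in FPKM. Both medians were above 0 among genes averaging 10 FPKM or more, and that of SryHi males was 1.15 in TPM.

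Over the whole series, the summed FPKM was 5.15e+06 in wildtype females, 1.35e+06 in SryHi males and 4.29e+06 in wildtype males, of which Ighj1 and Ighj4 took 72.6%, 35.4% and 75.8%, and symbols of over 300 nt summed to 612211, 582587 and 530164 FPKM. Members summed to 114894 FPKM in wildtype females, 16337 FPKM in SryHi males and 43961 FPKM in wildtype males. They made up 2.23% of the library sum in wildtype females, 1.21% in SryHi males and 1.02% in wildtype males. The SryHi library was thus lowest by member sum, whereas the wildtype male library was lowest by share. That share is of sums that include Ighj1 and Ighj4, which took 72.6%, 35.4% and 75.8% of them, so it depends on these 2 genes. Xist was at 395 FPKM in wildtype females and below 1 FPKM in both male libraries, the Y genes Ddx3y, Eif2s3y, Kdm5d and Uty were above 0 in the male libraries only, and Sry was above 0 only in SryHi males, at 20.8 FPKM. The T and B cell markers of the node were above 0 in all libraries. The 3 T cell markers summed to 179 FPKM in wildtype females, 106 FPKM in SryHi males and 146 FPKM in wildtype males. The libraries had that order in 24 of the 27 members above 0 in all 3, and it was not counted over all symbols. Cd3e was nearly level between the wildtype libraries, with 53.8, 36.9 and 53.3 FPKM in the same order. Cd3d had 32.5, 9.71 and 19.0 FPKM, and Trac had 92.6, 59.2 and 73.6 FPKM. The 3 B cell markers summed to 539, 523 and 595 FPKM. Marker sums of other cells moved with the libraries as well. The 4 neutrophil markers summed to 48.5, 73.6 and 300 FPKM in wildtype females, SryHi males and wildtype males, the 4 fat markers to 54.1, 132 and 54.9 FPKM, and the 4 skeletal muscle markers to 13.6, 2.80 and 6.22 FPKM, with Acta1 at 0 in SryHi males. The skeletal muscle sums thus had the same order of libraries as the T cell sums. The part of any of these cells in the members' differences was not tested.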

How the data were processed

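Total RNA of popliteal lymphnodes was pooled by group, depleted of ribosomal RNA and sequenced as stranded libraries with 2 mates of 50 bases. The submitters' notes and the study's methods name HiSat2, Samtools, Cufflinks, Cuffdiff and mm10, with no version. The authors deposited 2 Cuffdiff tables of FPKM, which they normalized by transcript length and mapped fragments, so that counts and depth are unknown. The tables also hold the authors' fold changes, test statistics, p-values, q-values and calls, which were not used. Each table has 48808 entries, and 2 emptied lines per table were left out.

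Entries of a symbol were summed (Snora16a and Snord80 have 2). The wildtype male values of the members were the same in both tables. Log2 ratios of FPKM + 1 were taken within a table for genes averaging 1 FPKM or more over the pair, and 2-fold was counted. No replicate exists, so no test was run and no interval is given. The counting was checked on simulated data. Positions, lengths, hosts and sequences come from GENCODE M21, in which all 149 member entries lay inside the deposited locus. No reads were remapped. Some items, among them 1 sequence and its place, are not reported here. Python 3.11.15, pandas 2.3.3, numpy 2.4.6 and matplotlib 3.10.9 were used.

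The members and lists were chosen with earlier results of these data known. Members named are the 6 largest and 6 smallest ratios per comparison among members above 0 in both libraries, the 6 box C/D and 6 H/ACA members of highest mean, Scarna members above 0, RNAs of ribosomal RNA cleavage, the imprinted clusters, and the 4 highest of those listed at 0 in exactly 1 library. The core protein genes are named, with the 4 hosts of highest mean and the 2 largest and 2 smallest host ratios. Chosen after their values were seen were Snord49b, Snord47, Snord33, Snord34, Snord35a, Snora61, Snord99, Snord15a, Snord15b, Snord17, Scarna8, Scarna9 and Scarna17, hosts that are paired with members, the assembly factors, Rnu3a, Terc, Rn7sk, Rnu12, Ighj1 and Ighj4, and the gene lengths of 107 and 164 nt. Alternatives varied the pseudocount, the filter, the scaling, the entries and the values of 0.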

Additional observations from a re-analysis of the deposited data

How the results depend on the processing

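No paired analysis was possible because each group is 1 pooled library, and for the same reason no library was left out. The alternatives gave 118 values, of which 87 stayed close to those reported (a median within 0.1 on the log2 scale, a count within 1.5 times), 25 moved and 6 changed sign. The shift of all genes on rescaling to TPM was set by the summed FPKM that each library was divided by. That sum was 1.35e+06 in SryHi males and 4.29e+06 in wildtype males, of which Ighj1 and Ighj4 took 35.4% and 75.8%. The cause of the other changes was not tested except where the number of members named differs by construction.

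Rescaling to TPM placed the median of all genes at -0.19 for wildtype females over wildtype males and at 1.37 for SryHi over wildtype males. For females and males it gave medians of 0.38 for box C/D members, 1.08 for H/ACA members and -0.032 for host genes. For SryHi and wildtype males it gave 17 members higher and 16 lower, and medians of -3.81 for box C/D members, 1.17 for H/ACA members, 1.59 for host genes and 1.15 for protein genes. Read against the median of all genes, the H/ACA and protein genes were then below it and the host genes above it. Scaling to an equal median gene level instead left all 12 results close to those reported.

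With members above 0 in both libraries only, 1 member was lower in wildtype females. In SryHi males 2 were higher and 13 lower, and the box C/D median was -0.77, against -5.83 over all box C/D members measured. The value over all of them includes members at 0 and depends on the pseudocount, being -9.12 at 0.1 and -3.16 at 10. A pseudocount of 10 also gave 1.19 for H/ACA members in females and males and -0.075 for protein genes in the male libraries. At a mean of at least 10 FPKM the protein gene medians were 0.079 in females and males and 0.091 in the male libraries.

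The alternatives chosen after seeing the data kept members of at least 120 nt, or those overlapping no annotated exon. With the longer members, 3 were lower in wildtype females and the box C/D median was 1.04, and in SryHi males 3 were higher and 17 lower with a box C/D median of -1.02. Without exon overlap, 2 were lower in wildtype females, with medians of 0.85 for box C/D and 1.75 for H/ACA members, and in SryHi males 1 was higher and 13 lower, with medians of -4.49 and -0.25.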
